A study of Homo sapiens with 4 samples.

Results

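The genes described here encode parts of the integrated stress response and the unfolded protein response. They are ATF4, DDIT3, ASNS, TRIB3, CHAC1, SESN2, PSAT1, PHGDH, XBP1 and HSPA5, 10 of the 20037 protein-coding genes in the RefSeq gene table. They were listed by name and not by any measured value, but with earlier results of these data known. All 10 were found by symbol. H3K27ac, the histone H3 acetylation found at active promoters and enhancers, had been profiled by ChIP-seq in K562, a human leukaemia cell line with erythroid features. One library came from cells exposed for 18 h to 1 uM daunorubicin and 1 from cells left without the drug, both grown in the same medium and plated the day before. Daunorubicin is an anthracycline that binds between DNA bases and traps topoisomerase II on DNA. With 1 library per condition, no difference below has a replicate check and no test was made.

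In the integrated stress response, kinases that sense amino acid shortage, haem shortage, viral RNA or misfolded protein phosphorylate eIF2, which lowers general translation and raises translation of the transcription factor ATF4. ATF4 and its partners then drive genes for amino acid supply and redox balance, and also the factor CHOP (gene DDIT3). In the unfolded protein response, IRE1 splices the mRNA of XBP1, and XBP1 and ATF6 drive chaperones of the endoplasmic reticulum such as BiP (gene HSPA5). In both pathways much of the control acts on translation, splicing or protein cleavage, which H3K27ac does not measure.

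Peaks were counted over the gene itself plus 50 kb in each direction, and the marked length of a gene is the number of base pairs that peaks cover there. A peak was placed at the start of a gene if it lay within 1 kb of the transcription start or of an annotated gene end, and was called distal otherwise. No peak of either library lay at the far end of any of the 10 genes. The daunorubicin list held 65118 peaks and the untreated list 38626, a ratio of 1.69, and the ratio of covered length was 1.59. Read depth is unknown because the lists hold no read counts. Peak scores are the authors' own values. They are given for each list beside its median, 41 with daunorubicin and 43 without it. No change is read from a peak's score in one list against a score in the other. The exception is the stricter score setting, which applied the same cutoff of 43 to both lists. Their scores were spread differently, with upper quartiles of 83 with daunorubicin and 120 without it. Neither input list had a peak near the 10 genes. Of 6 erythroid genes looked up after the data had been seen (GATA1, TAL1, KLF1, HBG1, HBG2 and EPOR), 6 had a peak at an annotated end with daunorubicin and 5 without it. Of 4 lymphoid genes (CD3E, CD3D, MS4A1 and CD79A), 3 had one in each library.

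The promoter windows that the results turn on are printed from 250 bases before to 50 bases after the first start that RefSeq lists (GRCh38.p14), 5′ to 3′ on the gene's own strand. They belong to HSPA5 (chr9:125241294-125241593, minus strand), XBP1 (chr22:28800520-28800819, minus strand), ASNS (chr7:97872359-97872658, minus strand) and CHAC1 (chr15:40953221-40953520, plus strand). In these windows capitals mark a match to a searched motif.
HSPA5: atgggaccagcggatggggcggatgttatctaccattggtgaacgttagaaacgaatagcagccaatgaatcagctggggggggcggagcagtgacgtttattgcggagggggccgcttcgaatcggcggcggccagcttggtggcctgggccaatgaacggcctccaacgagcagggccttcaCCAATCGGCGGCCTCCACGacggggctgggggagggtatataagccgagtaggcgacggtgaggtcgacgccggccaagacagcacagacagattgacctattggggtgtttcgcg
XBP1: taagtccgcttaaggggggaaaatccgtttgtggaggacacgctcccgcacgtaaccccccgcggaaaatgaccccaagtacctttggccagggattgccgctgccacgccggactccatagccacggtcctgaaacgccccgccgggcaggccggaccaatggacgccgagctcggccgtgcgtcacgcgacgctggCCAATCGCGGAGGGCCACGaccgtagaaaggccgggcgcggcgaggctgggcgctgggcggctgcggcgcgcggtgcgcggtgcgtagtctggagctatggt
ASNS: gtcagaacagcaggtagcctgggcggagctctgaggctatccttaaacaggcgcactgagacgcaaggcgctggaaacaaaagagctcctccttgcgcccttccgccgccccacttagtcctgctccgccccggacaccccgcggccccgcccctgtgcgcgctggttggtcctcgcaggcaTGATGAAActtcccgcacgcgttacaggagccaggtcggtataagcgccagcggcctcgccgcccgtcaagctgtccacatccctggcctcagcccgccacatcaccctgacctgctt
CHAC1: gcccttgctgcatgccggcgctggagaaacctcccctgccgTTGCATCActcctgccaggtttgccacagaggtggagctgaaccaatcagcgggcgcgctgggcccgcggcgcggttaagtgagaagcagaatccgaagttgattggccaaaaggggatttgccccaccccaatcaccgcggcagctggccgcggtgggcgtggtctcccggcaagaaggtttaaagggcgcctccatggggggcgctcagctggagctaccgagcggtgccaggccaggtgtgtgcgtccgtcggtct

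The PSAT1 window (chr9:78296875-78297174, plus strand) is shown because its marking was interrupted with daunorubicin. Its capitals mark the 30 bases that a daunorubicin peak covered, and the untreated peak covered all 300.
PSAT1: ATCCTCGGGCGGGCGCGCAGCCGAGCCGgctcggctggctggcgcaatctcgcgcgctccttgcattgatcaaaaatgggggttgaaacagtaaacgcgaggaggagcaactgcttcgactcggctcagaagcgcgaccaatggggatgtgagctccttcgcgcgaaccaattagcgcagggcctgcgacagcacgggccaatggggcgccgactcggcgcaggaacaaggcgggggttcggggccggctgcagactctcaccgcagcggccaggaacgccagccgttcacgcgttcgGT

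The searched motifs were TGATGNAA, the core of the composite element bound by ATF4 with C/EBP factors, TGACGTGG, bound by XBP1 and ATF6, and TGACGTCA, the cyclic AMP response element. The others were the endoplasmic reticulum stress element (ERSE: CCAAT, 9 bases, then CCACG) and its variant ERSE-II (ATTGG, 1 base, then CCACG). Both strands were read. TGATGNAA was found in the windows of ASNS and CHAC1 and in 3.67% of 27303 promoter windows of the table. The ERSE was found in those of XBP1 and HSPA5 and in 0.0806% of all windows. The letters of the other motifs were in none of the 10 windows, against 0.795% of all windows for TGACGTGG, 1.98% for TGACGTCA and 0.0549% for ERSE-II. No match overlapped another. No enrichment is read from these shares, because the genes were listed as parts of the pathways whose motifs were searched.

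**Figure D1:**
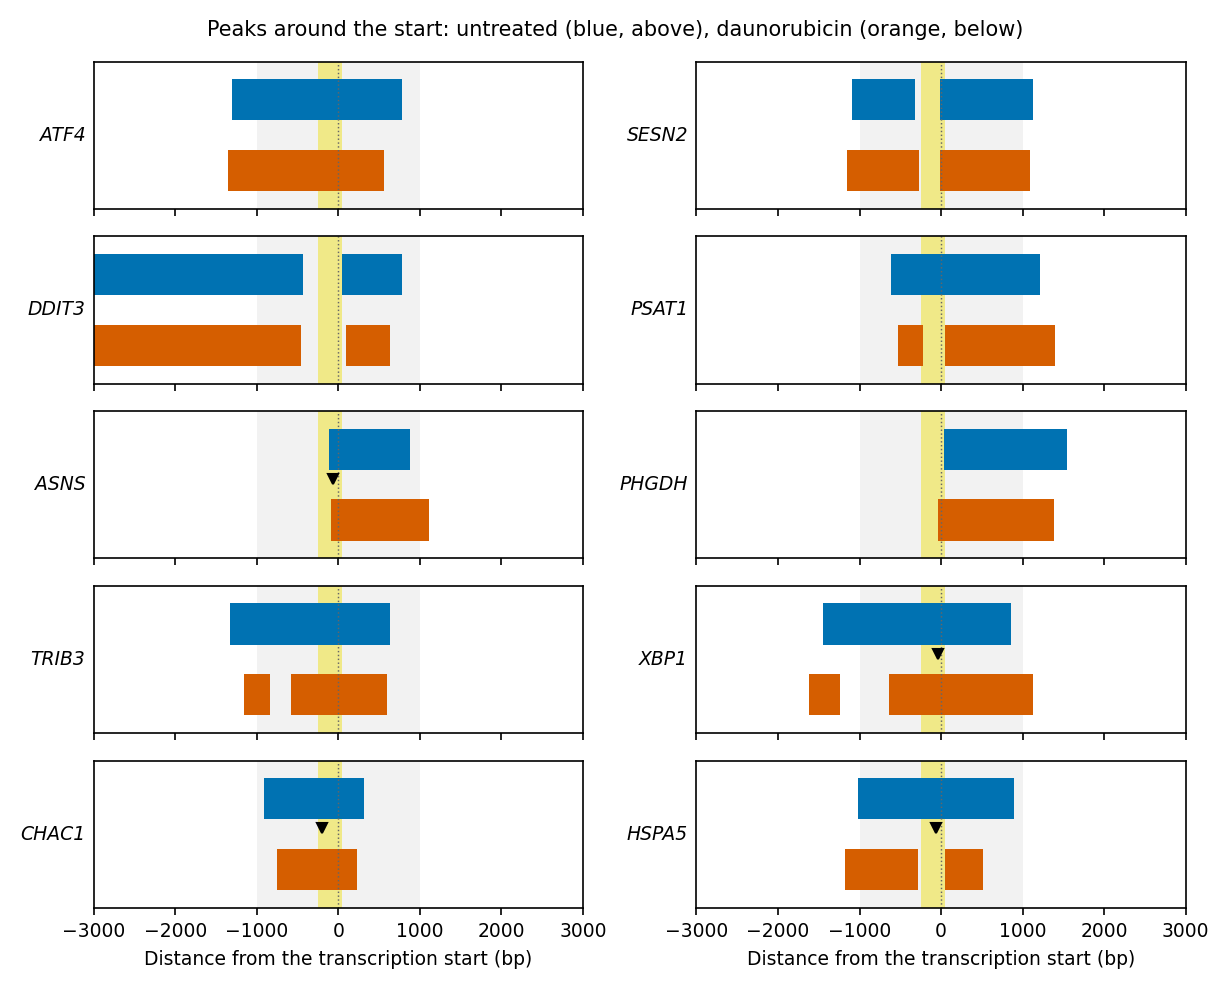
H3K27ac peaks from 3000 bp before to 3000 bp after the transcription start of each gene, untreated in blue above and daunorubicin in orange below. Grey marks 1 kb on either side of the start, yellow the promoter window and triangles the motif matches, and the upstream peaks of DDIT3 run past the left edge. With daunorubicin the promoter window of HSPA5 lay between its peaks, whereas the untreated peak covered it.

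All 10 genes had a peak within 1 kb of the start in both libraries, against 62.8% of 15842 protein-coding genes with daunorubicin and 59.5% without it. At ASNS that start lay inside the annotated gene span, so by annotated ends alone the count was 9 of 10 in each library. The members differed more in how far that marking reached. Within 1 kb on either side of the start, the covered length was shorter with daunorubicin at 7 of the 10 genes and longer at 3. Of 9322 protein-coding genes with the start marked in both libraries, 44.1% were shorter. The median difference, daunorubicin minus untreated, was -225.5 bp over the 10 genes and 16 bp over those 9322. This measure was chosen after the data had been seen.

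HSPA5, which encodes the chaperone BiP, had the largest shortening at the start among the 10. Its covered length within 1 kb of the start was 1183 bp in treated and 1890 bp in untreated cells. The untreated library had a single peak of 1908 bp over the start (125240454 to 125242361, score 308), which also lay at the end of the divergent transcript HSPA5-DT. The daunorubicin library had 2 peaks there, of 462 bp inside the gene (score 105) and of 902 bp upstream (score 217). The gap between them ran from 279 bp before the start to 51 bp after it, 331 bp in all, and took in the whole promoter window printed above. The ERSE match, 66 to 48 bp before the start, was covered over all of its 19 bases without the drug and over 0 with it. Both scores were above their list's median, and the split was also present under a stricter score and with equal numbers of top-scoring peaks.

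A single untreated start peak was met by at least 2 daunorubicin peaks at 4 of the 10 genes, HSPA5, PSAT1, TRIB3 and XBP1, against 10.6% of the 9322 genes. At PSAT1, which encodes phosphoserine aminotransferase of serine synthesis, the untreated peak covered 1830 bp (score 83). The daunorubicin peaks there covered 312 bp and 1354 bp, with a gap from 222 bp before the start to 47 bp after it. Their scores of 28 and 32 lay below the median of their list, and both peaks were absent under a score of at least 43 or with equal numbers of peaks. In those settings the start of PSAT1 was marked only without daunorubicin, with 1830 bp against 0. The lowest daunorubicin score kept with equal numbers was 33, just above the 32 of the wider peak. In the full list the start was marked with daunorubicin, so its loss came from these cuts.

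TRIB3, a pseudokinase that CHOP induces, had an untreated start peak of 1966 bp (score 181). With daunorubicin there were peaks of 1176 bp (score 107) and 315 bp (score 23), and the gap lay from 838 to 582 bp before the start, outside the promoter window. The listed start of TRIB3, at 381295, lay inside its annotated gene span, which begins at 380760. The gap, 380457 to 380713, lay just before that annotated end. Within 1 kb of the start TRIB3 had 1338 bp against 1635 bp, PSAT1 1265 bp against 1618 bp and XBP1 1635 bp against 1854 bp. At XBP1 the untreated peak of 2299 bp (score 208) was met by peaks of 1759 bp (score 169) and 390 bp (score 22), and the ERSE match was covered in both libraries. Thus, by the listed starts, the interruption took in the promoter window at HSPA5 and most of it at PSAT1. It lay upstream of the window at TRIB3 and XBP1, although at TRIB3 it adjoined the annotated end of the gene. Under the stricter score or with equal numbers of peaks, 9 of the 10 genes had the start marked in both libraries. Of those 9, 1 was split, HSPA5, against 7.81% and 8.39% of protein-coding genes.

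DDIT3 and SESN2 had 2 start peaks in each library. At DDIT3, where the upstream peak also lies at an end of MBD6, the gap was 558 bp in treated and 474 bp in untreated cells, and the length within 1 kb of the start was 1076 bp against 1303 bp. At SESN2, which encodes Sestrin2, an antioxidant protein that restrains mTORC1, the gap was 258 bp against 314 bp, and the length 1743 bp against 1687 bp. A gap over the promoter window was therefore not confined to the treated cells at these genes. ATF4 had 1 start peak in each library, with 1563 bp against 1787 bp within 1 kb. At CHAC1, which encodes an enzyme that degrades glutathione, the start had 981 bp against 1229 bp, and the TGATGNAA match, on the strand opposite to the gene, was covered in both libraries. ASNS, which encodes asparagine synthetase, had 1094 bp against 996 bp at its start, and its match 68 to 61 bp before the start was likewise covered in both. PHGDH, which encodes the first enzyme of serine synthesis, had 1034 bp against 961 bp.

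**Figure D2:**
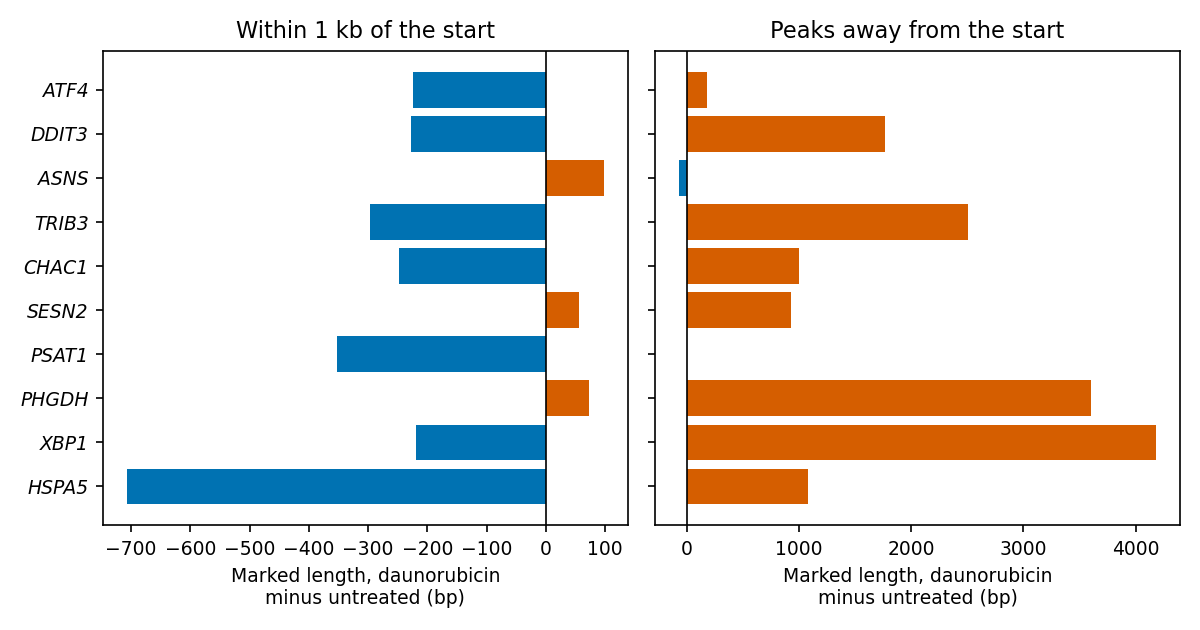
Difference in marked length, daunorubicin minus untreated, at each of the 10 genes, within 1 kb of the start on the left and in distal peaks on the right, in bp on axes of different scale. Blue bars, to the left of 0, are shorter with daunorubicin and orange bars longer, with blue bars at the starts of 7 genes.

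Away from the start marking was longer with daunorubicin, as at most genes. Distal peaks over the 10 genes numbered 59 with daunorubicin and 42 without it and covered 62922 bp against 47758 bp, a ratio of 1.32. Within 1 kb of the starts the summed lengths were 12912 bp and 14960 bp, a ratio of 0.86. Over protein-coding genes the same ratios were 1.46 for distal peaks and 1.02 at starts marked in both libraries. Distal length was longer in the treated cells at 8 genes and shorter at 1, ASNS, and PSAT1 had no distal peak in either library. Of 13678 protein-coding genes with a listed start and a distal peak, 87.9% were longer. Of the distal peaks, 19 with daunorubicin and 17 without it lay at an end of another gene, and 23 against 10 were intergenic.

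Start and distal peaks together gave a longer marked length with daunorubicin at 9 of the 10 genes, a share near that of all 17631 protein-coding genes with a peak, of which 87.4% were longer. One gene, PSAT1, was shorter, against 12.5%. Only 2 genes, PHGDH and XBP1, reached a length at least 1.5 times longer, against 40.5% of all genes. One of the 10 did with equal numbers of top-scoring peaks, against 19.3%. The median difference was 872.5 bp over the 10 genes and 1312 bp over the 17631. That order turned with equal numbers of peaks, with 423.5 bp against 399 bp, and under a score of at least 43, with 955.5 bp against 849 bp. In windows of 10 kb the marked length was longer at 4 of the 10 genes and shorter at 6, whereas 79.7% of protein-coding genes were longer there. With equal numbers of top-scoring peaks 7 were longer and 3 shorter, against 65.4% longer among all genes.

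**Figure D3:**
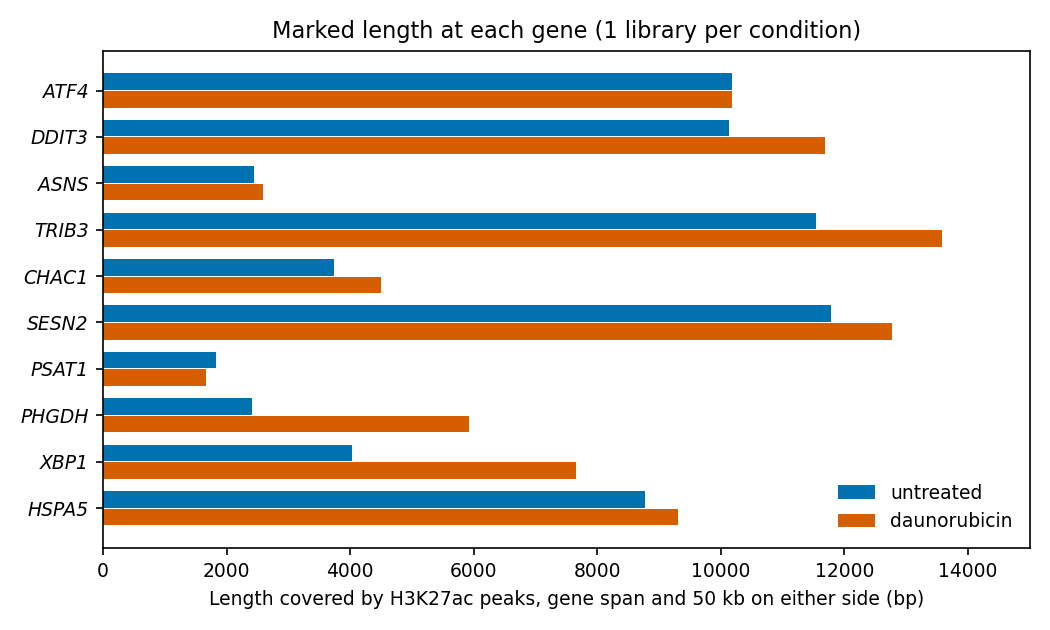
Marked length in bp at each of the 10 genes, over the gene and 50 kb in each direction, untreated in blue and daunorubicin in orange, 1 library each. The bars differ most at PHGDH and XBP1 and are nearly equal at ATF4.

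XBP1 (chromosome 22, 28794560 to 28800569) had a marked length of 7663 bp in treated and 4022 bp in untreated cells (1.91 times). It had 9 peaks against 4. The daunorubicin library had 5 intergenic regions upstream of the start that had no untreated peak, from 11.0 to 29.2 kb before it. The highest score among them, 78, belonged to a region of 1079 bp at 28822867 to 28823945, 22.3 kb upstream. The other 4 had scores of 17 to 27, below the median of the list. The untreated library had no peak upstream of its start peak in this window, and 1 region only it had called, of 247 bp inside the neighbour CCDC117 (score 31). In windows of 10 kb the difference of 3641 bp shrank to 23 bp, and it was 1191 bp with equal numbers of peaks and 870 bp at the stricter score.

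PHGDH (chromosome 1, 119711934 to 119744215) had 5923 bp against 2418 bp, a ratio of 2.45, and 6 peaks against 3. Of the 3 regions called only with daunorubicin, the widest, 1434 bp, lay 37.0 kb upstream of the start (119673488 to 119674921, score 70) and a region of 1235 bp lay 49019 bp upstream, in the uncharacterised locus LOC124904390 (score 50). Both scores exceeded the median of the list. The first lay within 1 kb of a peak found in both libraries and would count as shared if gaps of 1 kb were allowed. The third lay inside PHGDH, 16.4 kb after the start (267 bp, score 23). A shared peak inside the gene, 25.0 kb after the start, was 1298 bp wide with daunorubicin and 355 bp wide without it. PHGDH was at least 1.5 times longer also under the stricter score (2.74 times), with equal numbers of peaks (2.34 times) and in windows of 10 kb (1.6 times).

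The next enzyme of serine synthesis, PSAT1 (chromosome 9, 78297125 to 78330093), had 1666 bp against 1830 bp and no peak other than those at its start. ASNS (chromosome 7, 97851677 to 97928441) had 2583 bp against 2439 bp in 2 peaks in each library. One was its start peak (score 111 with daunorubicin, 268 without it). The other lay 98.9 kb upstream, at ends of the pseudogene CCZ1P1 and of the loci CCZ1P-OR7E38P and CZ1P-ASNS. These 2 genes had the fewest peaks of the 10, and neither had a region called in 1 library only.

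ATF4 (chromosome 22, 39520559 to 39522686) had nearly equal marked lengths, 10186 bp in 9 peaks for treated and 10179 bp in 10 peaks for untreated cells. The 2 regions called only without daunorubicin lay inside MGAT3, 49.3 and 33.1 kb upstream of ATF4, with scores of 26 and 25. The 1 region called only with it, of 212 bp and score 24, lay inside MIEF1, 11.7 kb upstream. Shared peaks in the window lay at an end of MIEF1 and of RPS19BP1. With equal numbers of peaks the difference at ATF4 was -735 bp, and under the stricter score it was 2060 bp.

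DDIT3 (chromosome 12, 57516588 to 57520517), the gene of the proapoptotic factor CHOP, had 11687 bp against 10126 bp in 8 and 7 peaks. The widest difference in a single peak lay inside DCTN2, 17.7 kb upstream, where a shared peak was 2652 bp wide with daunorubicin and 962 bp wide without it. The 1 region called only with daunorubicin, inside KIF5A, was 268 bp wide with a score of 16. The windows of DDIT3 and of the tRNA synthetase gene MARS1 overlap, so peaks at MARS1 also count for DDIT3.

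TRIB3 (chromosome 20, 380760 to 397559) had 15 peaks with daunorubicin, the most of the 10 in that library, and 8 without it, and 13580 bp against 11548 bp. Of its 4 regions called only with daunorubicin, 3 were intergenic, at 14.6 and 5.5 kb before and 20.1 kb after the start, and 1 lay at an end of NRSN2. Their scores ran from 20 to 29, and none was present with equal numbers of peaks, where the difference at TRIB3 was -2133 bp. An untreated peak of 2199 bp located 8.0 kb upstream was also met by 2 daunorubicin peaks, of 399 bp and 1828 bp.

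CHAC1 (chromosome 15, 40953471 to 40956512) had 4 peaks in each library, with 4496 bp against 3745 bp. The difference came from its distal peaks, of which the one 46.0 kb upstream was 1632 bp wide with daunorubicin and 861 bp without it. SESN2 (chromosome 1, 28259518 to 28282491) had 12 peaks against 10 and 12770 bp against 11776 bp. A shared intergenic peak 41.7 kb after its start was 1456 bp wide with daunorubicin (score 128) and 577 bp wide without it (score 55). HSPA5 (chromosome 9, 125234853 to 125241343) had 7 peaks against 5 and 9303 bp against 8769 bp. Its distal gain lay mostly in GAPVD1, with a region of 415 bp called only with daunorubicin (score 19) and a shared peak of 2355 bp against 1850 bp.

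**Figure D4:**
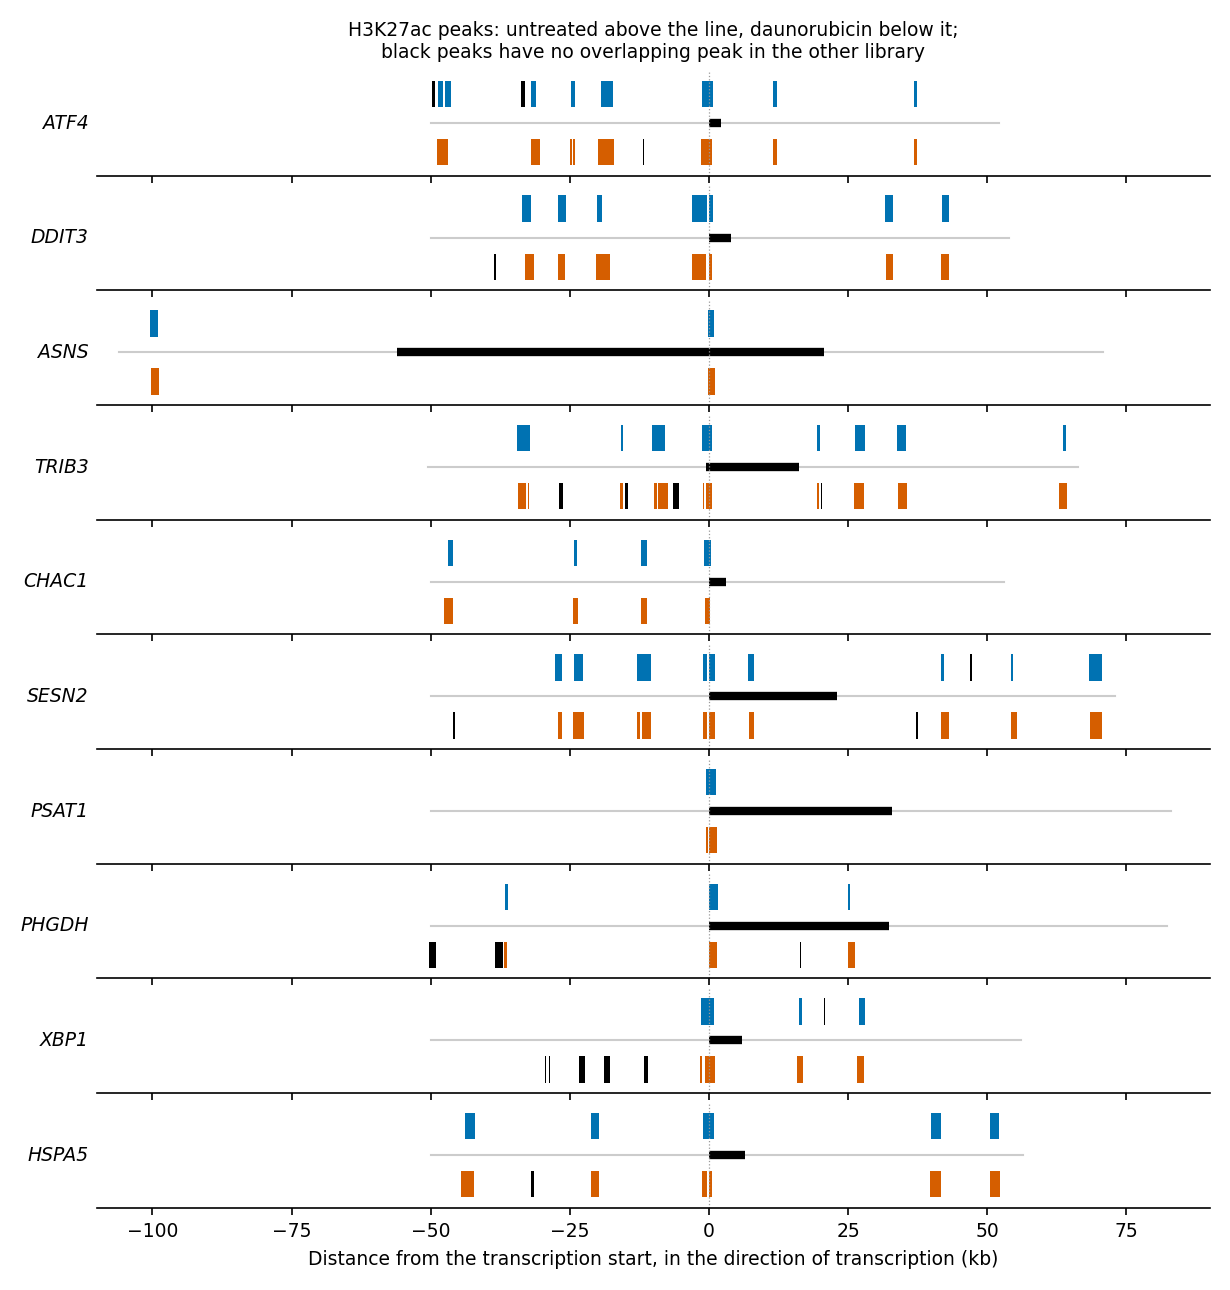
Peaks within 50 kb of each of the 10 genes by distance from the transcription start in kb, with upstream to the left. Untreated peaks are above and daunorubicin peaks below the grey line, which marks the window, and the thick bar marks the gene span. Black peaks have no overlapping peak in the other library, and 5 of them lie upstream of XBP1 with daunorubicin.

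Merging the peaks of both libraries gave 49 regions at the 10 genes shared by both libraries, 17 found in treated cells alone and 4 in untreated cells alone. Of 67554 such regions in the whole series, 44.6% were found in treated cells alone and 6.13% in untreated cells alone. The 17 lay at 7 of the genes, 5 of them at XBP1, 4 at TRIB3 and 3 at PHGDH, and none lay at a member's own start. They were narrow, with a median width of 415 bp (range 208 to 1434), against 1528 bp for regions called in both. Their scores ran from 16 to 78 with a median of 24, and 4 exceeded the list median. Of the 4 called only without daunorubicin, with scores of 18 to 31, 3 lay in gene bodies and 1 was intergenic. With equal numbers of peaks the unshared regions were 4 from treated and 7 from untreated cells. Only the daunorubicin list was cut there, so the treated count could not rise and the untreated count could not fall. The shares over the whole series were not computed in that setting.

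The other genes of both pathways were taken from 8 lists of 99 genes, 98 found by symbol and 1 by synonym. Of these, 91 had a longer marked length in treated cells, 7 a shorter one and 1 an equal one, and 30 were at least 1.5 times longer, beside the 87.4% and 40.5% of all protein-coding genes. The median difference was 1685 bp. With equal numbers of peaks 63 were longer and 34 shorter, beside 65.4% longer among all genes. Of 85 genes with a listed start, 80 had it marked with daunorubicin and 79 without it. Among the 78 marked in both, the length within 1 kb of the start was shorter at 39, beside the 44.1% of all genes.

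The widest difference of the 99 was at ERN1, the gene of IRE1, the sensor that splices XBP1 mRNA. Its marked length was 18590 bp against 6458 bp, and the difference of 12132 bp was 5775 bp with equal numbers of peaks. ERN1 had 14 regions called only with the drug, 1 only without it and 7 in both libraries. Of all regions in the series, 44.6% were called only with the drug and 6.13% only without it. ERN1 was listed among 9 sensors of the unfolded protein response and their regulators. Of these, 8 were longer and 1 shorter, a share near the 87.4% longer among all protein-coding genes. CREB3L2, a transcription factor of the endoplasmic reticulum membrane, had 23422 bp against 13876 bp, and ATF6, the sensor released by cleavage, 12251 bp against 6312 bp. All 3 had a peak at the start in both libraries.

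All 14 genes of eIF2, its kinases, its exchange factor and its phosphatase were longer with daunorubicin, by a median of 2267.5 bp, and 13 were so with equal numbers of peaks. Of all protein-coding genes with a peak, 87.4% were longer, and 65.4% with equal numbers. The median difference over all those genes was 1312 bp in the full lists. EIF2B3 and EIF2B5, subunits of the exchange factor eIF2B, had 18725 bp against 14276 bp and 12157 bp against 8066 bp. EIF2S1, the subunit that the kinases phosphorylate, had 7208 bp against 3472 bp. Of 12 transcription factors and regulators of the integrated stress response 10 were longer and 1 shorter. With equal numbers of peaks 5 were longer and 6 shorter, beside the 65.4% longer among all genes. FGF21, a secreted hormone gene induced by ATF4, had 13269 bp against 9387 bp, DDIT4, an inhibitor of mTORC1 signalling, 12973 bp against 11100 bp (a difference of 27 bp with equal numbers of peaks), and ATF3, a stress-induced transcription factor without a peak at its listed start in either library, 8879 bp against 3715 bp.

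All 9 amino acid transport genes were longer in the full lists, where 87.4% of all protein-coding genes were. With equal numbers of peaks 4 were longer and 5 shorter, beside 65.4% longer among all genes. SLC1A4, a neutral amino acid transporter, had 9484 bp against 6091 bp, and the glycine transporter gene SLC6A9 12211 bp against 9170 bp. SLC7A5, which encodes the large neutral amino acid transporter LAT1, had 8891 bp against 5533 bp, yet 0 peaks at its start with daunorubicin and 1 without it. It had 8 regions called only with daunorubicin and 4 in both libraries, beside 44.6% called only with the drug over the whole series. With equal numbers of peaks the difference at SLC7A5 was -192 bp. In serine, glycine, one-carbon and proline synthesis all 12 genes were longer, 9 with equal numbers of peaks, with SHMT2, a mitochondrial serine hydroxymethyltransferase, at 9492 bp against 4806 bp. MTHFD1L, a mitochondrial folate enzyme, had 9340 bp against 5092 bp, and CTH, which makes cysteine from cystathionine, 6212 bp against 3255 bp.

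Of 13 genes of aminoacyl-tRNA synthetases and tRNA export 11 were longer and 2 shorter, and with equal numbers of peaks 9 were longer and 4 shorter. The shares longer among all protein-coding genes were again 87.4% and, with equal numbers, 65.4%. IARS1 had 10955 bp against 6328 bp, NARS1 11841 bp against 8237 bp and YARS1 9585 bp against 6689 bp. Among 17 chaperones and foldases of the endoplasmic reticulum, the group to which HSPA5 belongs by function, 14 were longer and 3 shorter, and with equal numbers of peaks 10 were longer and 7 shorter. DNAJB11, a co-chaperone of BiP, had 6279 bp against 2240 bp, HYOU1, another chaperone, 19170 bp against 15591 bp, and PDIA4, a disulfide isomerase, 10742 bp against 7231 bp. All 13 genes of degradation and translocation were longer, 7 with equal numbers of peaks. EDEM2 and EDEM3, which trim mannose from misfolded glycoproteins, had 14528 bp against 11377 bp and 6709 bp against 3919 bp. SEC62, a translocation gene, had 7992 bp against 4992 bp and a difference of -324 bp with equal numbers of peaks. Of the 24 genes named from these lists, 16 had a difference over 1.5 times smaller with equal numbers of peaks, among them 2 that turned negative, SLC7A5 and SEC62.

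**Figure D5:**
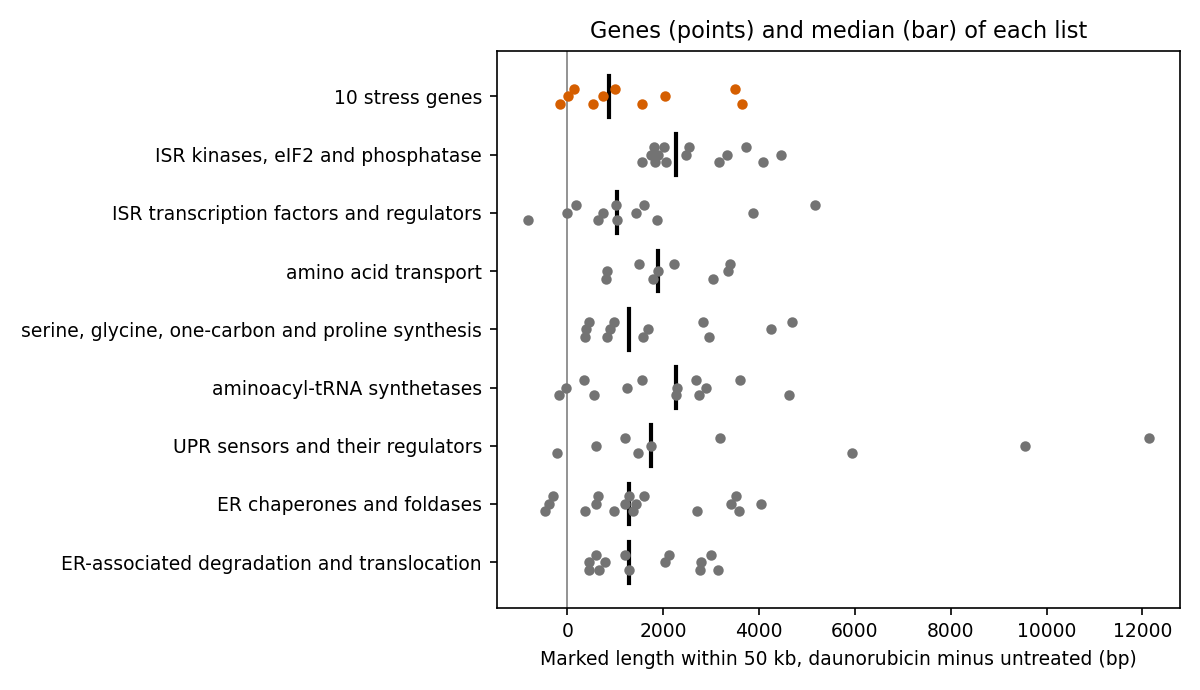
Difference in marked length within 50 kb, daunorubicin minus untreated, in bp, for each gene (points) of the 10 stress genes (orange) and of 8 pathway lists (grey), with the median of each as a black bar. Most points lie to the right of 0, and the point farthest to the right is ERN1 at 12132 bp.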

How the data were processed

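The authors deposited 1 peak list per library for 4 K562 libraries (H3K27ac and input, each with and without daunorubicin), with a score per peak as the only measured value. Per the submitters' processing notes the tools included MACS2 2.1.1, Bowtie2 2.3.4.3 and deepTools 3.2.1, and both hg19 and hg38 were named. The lists carried hg38 sequence names. Parameters, the use of inputs in calling and duplicate removal were not stated in what was used here, so the depth and the precision of each list are unknown, and peak number and width can move with both.

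Gene positions came from RefSeq GRCh38.p14, and the first start listed per gene in the RefSeq promoter table gave strand and start. Coordinates count from 1. An overlap of 1 bp made peaks of both libraries shared. Overlap, coverage, merging and motif search (Python 3.11.15, figures in matplotlib 3.10.9) were tested on simulated intervals. Background counts of marked length in windows ran over protein-coding genes with a peak there in either library. Those of marked starts ran over protein-coding genes with a listed start, and those of start length and splitting over genes with the start marked in both libraries. Those of distal length ran over genes with a listed start and a distal peak in either library. The members and lists were chosen with earlier results of these data known. Named were all 10 members and, of each list, the 3 genes with the largest absolute difference, with the genes in or at which a member's peak lay. The equal numbers setting kept the 38626 highest-scoring peaks of each list, and the stricter score was at least 43. Measures of the start and its splitting were added after the data had been seen. The closing section gives the effect of 8 other settings. Some genes looked up to check the cell line are not reported here.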

Additional observations from a re-analysis of the deposited data

How the results depend on the processing

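In windows of 10 kb the members longer with daunorubicin numbered 4, those shorter 6 and those at least 1.5 times longer 1, the median difference turned to -119.5 bp, and unshared regions numbered 3 in treated and 0 in untreated cells. Single genes that turned there were ATF4 (-222 bp), DDIT3 (-205 bp), CHAC1 (-248 bp), SESN2 (-75 bp) and HSPA5 (-544 bp). In windows of 100 kb 0 members were shorter, the median was 2938 bp, PSAT1 turned to 20 bp, and 42 and 9 regions were called in 1 library only. Equal numbers of top-scoring peaks cut only the daunorubicin list. In that setting 3 members were shorter and 1 was at least 1.5 times longer, the median was 423.5 bp (399 bp over all genes), 4 and 7 regions were unshared, 1 start peak was split, and ATF4 (-735 bp) and TRIB3 (-2133 bp) turned. Under a score of at least 43 the same values were 1 gene at least 1.5 times longer (35.4% of all genes), 955.5 bp (849 bp over all genes), 8 and 1 regions, and 1 split start. A reciprocal overlap of 50% left 36 and 16 peaks unshared, and counting gaps of 1 kb as shared left 12 and 3 regions. The causes were not tested, although the windows and peak numbers differ by construction.

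Counts of marked starts and ends stayed within 1.5 times of the reported ones under the settings run for them, as did the count of starts with shorter marking, which was 6 under the stricter score and with equal numbers of peaks, 5 within 500 bp and 8 within 2.5 kb, the last 2 settings chosen after seeing the data. Removing peaks on input peaks could not bear on the members, since 0 of them had an input peak. Read depth sets which low-scoring peaks are called and is unknown here.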
